A study of Mus musculus with 6 samples.

Results

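The proteins of blood clotting and of the complement system are made largely by the hepatocyte, and 40 of their genes were followed here on liver arrays from adult mice. They comprised 24 genes of coagulation and fibrinolysis and 16 genes of complement, chosen by name. A gene was measured where a probe set carried its symbol and no other, and 36 of the 40 were: 22 of coagulation and 14 of complement, out of 22180 genes measured on the arrays. Each of the 36 had 1 such probe set. Klkb1 (plasma prekallikrein), Cpb2 (a carboxypeptidase that slows fibrinolysis), Masp2 (a lectin pathway protease) and C3 were not analysed here. The probe sets that carry Klkb1 and Masp2 also carry a second symbol.

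The comparison asks whether a low maternal chromium intake leaves a different gene expression in the liver of grown offspring. The CR-CD group (3 arrays) consisted of livers of 32-week-old male C57BL offspring whose dams ate a chromium-restricted diet, in which most of the chromium potassium sulfate was left out, through pregnancy and lactation, and which themselves ate control diet from weaning. The CD-CD group (3 arrays) consisted of livers of offspring of the same age and strain whose dams ate the control diet and which ate it too. Both groups were thus on the same diet when the liver was taken. Neither the labels nor the methods state whether the 3 arrays of a group come from separate litters.

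Clotting proceeds as a chain of serine proteases, started by contact with a surface (factor XII) or by tissue factor (factor VII), which ends in thrombin cutting fibrinogen into fibrin. Plasmin then dissolves the fibrin, and serpins and the protein C system hold the chain in check. Complement runs through a similar chain, opened by antibody, by sugar-binding lectins or on any unprotected surface, and ends in a pore built of C5 to C9. Many of these proteins, fibrinogen among them, are acute-phase proteins, whose liver production is raised by interleukin 6 through STAT3 and C/EBP factors.

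All 36 genes were bright on these arrays. Signals are given on the log2 scale, where 1 unit is a 2-fold difference, and the percentile is the share of the 22180 genes with a lower mean over the 6 arrays. The 36 genes lay between the 88.1 percentile (C2) and the 99.9 percentile (Fgb), with a median of 98.9. The median was 99.1 for the coagulation genes and 98.6 for the complement genes. Signals of different probe sets also differ in how well their probes bind, so the order is one of array signal and not of transcript number. The livers were labelled as such, and 8 hepatocyte markers, albumin among them, all lay at the 97.5 percentile or above.

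The highest mean signals of the coagulation genes were those of Fgb (13.04), Fgg (12.68), Vtn (12.50), Serping1 (12.22), Plg (12.21) and Serpinc1 (12.17). At the low end stood F8 (8.48), which is known to be made mainly in endothelium, Pros1 (8.71), F11 (8.97) and F7 (9.82). Of the complement genes, Cfi (11.92), Hc (11.80), Cfb (11.55) and C4bp (11.54) were the brightest, and C2 (8.40), C6 (8.84) and Masp1 (9.82) the dimmest. The distance between neighbours in this order was often smaller than the spread between arrays: Serping1 and Plg differed by 0.01 in their means, while the SDs of Serping1 were 0.07 in CR-CD and 0.16 in CD-CD livers.

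**Figure D1:**
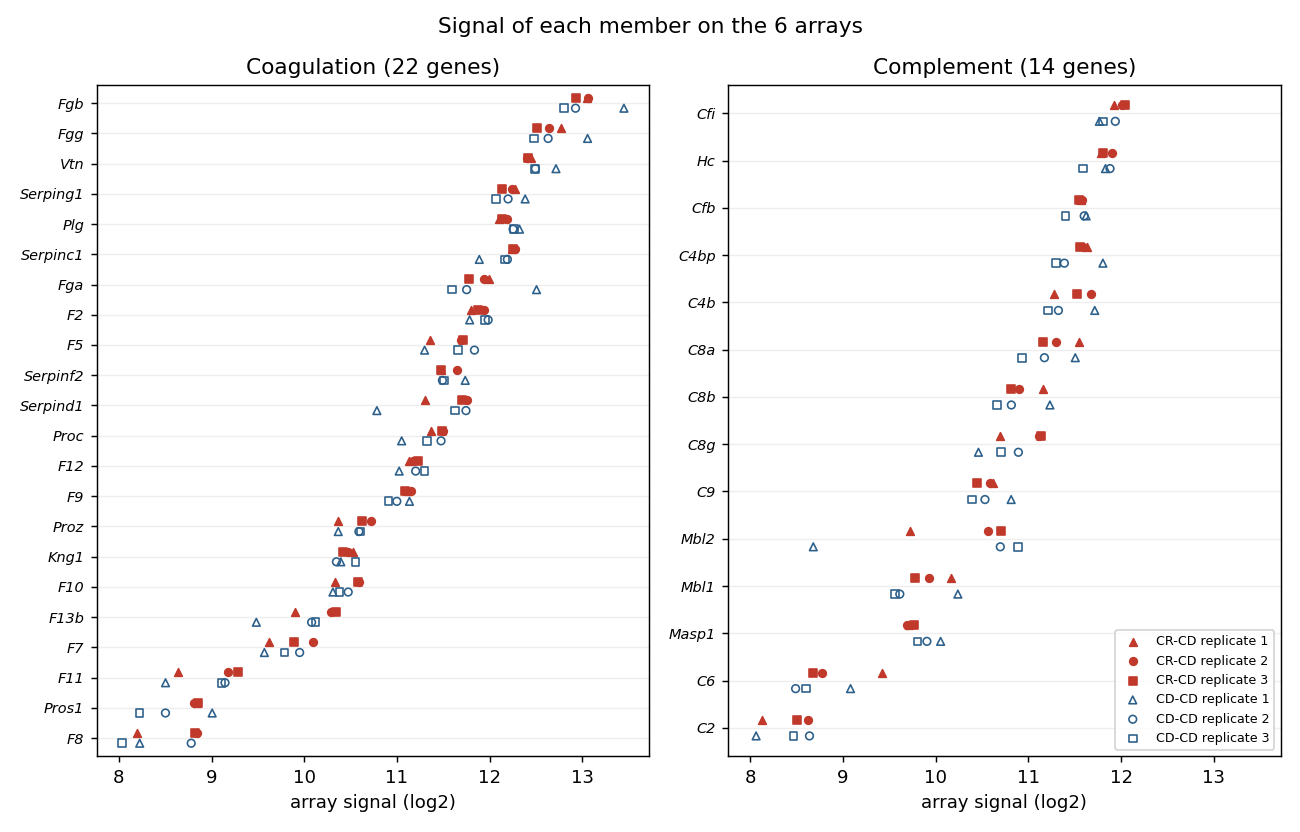
Log2 array signal (x axis) of the 22 coagulation genes (left) and 14 complement genes (right), ordered by mean signal, with filled red symbols for the 3 CR-CD arrays and open blue symbols for the 3 CD-CD arrays, and the shape giving the replicate number. The symbols of both groups mix in most rows, and the triangles of replicate 1 lie at an edge of many rows, lowest of all for Mbl2 (9.72 on the CR-CD array, 8.68 on the CD-CD array).

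No gene of either cascade changed past the test between CR-CD and CD-CD livers. In limma, 0 of the 36 genes had a Benjamini-Hochberg adjusted p under 0.05, against 1.48% of all genes (0 higher, background 0.784%, and 0 lower, background 0.699%), and the lowest adjusted p of the 36 was 0.773. At an unadjusted p under 0.05 there was 1 gene of the 36 (Masp1), against 6.38% of all genes, and with the methods' t-test also 1 (Plg), against 5.78%. A change of at least 1.5-fold with an unadjusted p of at most 0.05 was reached by 0 of the 36 genes and by 1.67% of all genes. With replicate number as a block, 0 of the 36 genes passed the adjusted p (1.53% of all genes), and 3, C8g, F13b and C6, had an unadjusted p under 0.05 (8.03% of all genes). The 3 CR-CD and 3 CD-CD values did not overlap for 4 of the 36 genes, against 11.4% of all genes. Among the 2633 genes at least as bright as C2, the groups did not overlap for 403, and 295 had an unadjusted p under 0.05 in limma. Of the 4 without overlap among the 36, Serpinc1 was higher in CR-CD livers (background 5.63%), while Plg, Vtn and Masp1 were lower (background 5.77%). Of the 329 genes past the adjusted p, 315 had a value written with more decimals than the rest of the table, and without those probe sets 0 genes passed (1091 had an unadjusted p under 0.05). None of the values of the 36 genes was written in that longer format (0 of 36 genes, 324 of all genes).

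The changes of the 36 genes were small. The log2 fold change (CR-CD minus CD-CD) ran from -0.20 for Masp1 to 0.29 for C8g, and its median size was 0.10, against 0.07 for all genes and 0.10 for the 2633 genes at least as bright as C2. For 27 of the 36 genes the 95% interval of the change lay within 1.5-fold either way, against 90.6% of all genes and 2020 of the 2633 bright ones. For the other 9 genes, F8, Pros1, C6, F11, Mbl1, F13b, Mbl2, C8g and Serpind1, a change of 1.5-fold could not be set aside at 3 arrays a group, and the widest interval was that of Mbl2, from -1.15 to 1.63. The change was above 0 for 25 of the 36 genes (50.7% of all genes, 1456 of the 2633 bright ones). Its median was 0.07 over the 36, 0.04 over coagulation, 0.08 over complement, 0.00 over all genes and 0.02 over the bright ones.

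**Figure D2:**
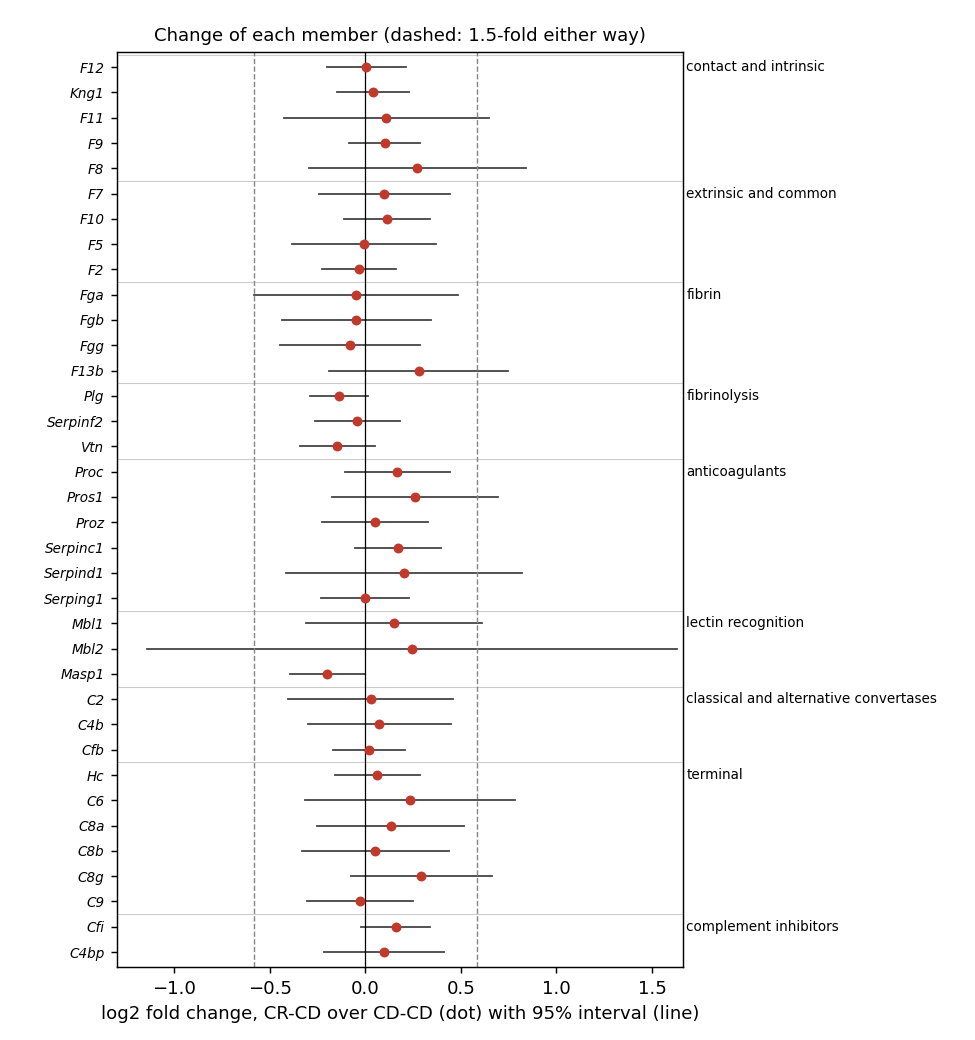
Log2 fold change of each of the 36 genes, CR-CD over CD-CD (x axis, dot), with its 95% interval (line), in groups by role, and dashed lines at 1.5-fold either way. Apart from Masp1 at -0.20, each interval includes 0, and that of Mbl2 is the widest, from -1.15 to 1.63.

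The genes of the contact and intrinsic pathway had changes of 0.27 or less in size, and the groups overlapped for each of them. F12, factor XII, the starter of the contact pathway and the brightest of its group, had 11.14, 11.18 and 11.23 in CR-CD livers and 11.02, 11.20 and 11.30 in CD-CD livers (in the order of replicates 1, 2 and 3, as in all such lists below), a change of 0.01 ± 0.09 (SE). F9, factor IX, the protease deficient in haemophilia B, had 11.11, 11.15 and 11.09 in CR-CD livers, against 11.14, 10.999 and 10.91 in CD-CD livers. The groups overlapped for both genes, and F9 changed by 0.10 (95% interval -0.08 to 0.29, adjusted p = 0.933). Kng1, the kininogen that releases bradykinin, gave 0.04, and F11, factor XI, gave 0.11 with an interval from -0.43 to 0.65. F8, the cofactor of factor IX, gave 0.27 with an interval from -0.30 to 0.84, and had 8.20, 8.84 and 8.82 in CR-CD livers and 8.23, 8.78 and 8.03 in CD-CD livers, so that the groups overlapped through CR-CD replicate 1. All 5 genes of the contact and intrinsic pathway had a change above 0, as had 25 of the 36 genes and 50.7% of all genes. The sign turned for F12, Kng1 and F11 with 1 array left out. Past the adjusted p there were 0 of the 5 (1.48% of all genes).

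From factor VII to prothrombin, the groups overlapped for every gene and the changes were 0.11 or less in size. F2, prothrombin, had 11.80, 11.94 and 11.88 in CR-CD livers and 11.79, 11.98 and 11.95 in CD-CD livers. The change of F2 was -0.03 (95% interval -0.23 to 0.16), and that of its cofactor gene F5, factor V, was -0.01 (-0.38 to 0.37). F7, factor VII, the partner of tissue factor, gave 0.10, and F10, factor X, gave 0.11. F7, F10 and Proz (protein Z, the cofactor of an inhibitor of factor Xa) stand next to each other in the RefSeq gene order with 0 protein-coding genes between them, and their changes were 0.10, 0.11 and 0.05.

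The fibrinogen genes encode the chains of the protein that becomes fibrin. Fgb, the beta chain and the brightest of the 36 genes, had 13.05, 13.06 and 12.93 in CR-CD livers, against 13.45, 12.93 and 12.80 in CD-CD livers. Fga, the alpha chain, had 11.99, 11.94 and 11.78 in CR-CD livers, against 12.51, 11.75 and 11.60 in CD-CD livers. Fgg, the gamma chain, had 12.77, 12.64 and 12.51 in CR-CD livers, against 13.06, 12.63 and 12.48 in CD-CD livers. In each chain replicate 1 of CD-CD was the highest of the 6 arrays, and the other CD-CD arrays lay below the CR-CD arrays of the same number. The changes were -0.05 for Fgb, -0.05 for Fga and -0.08 for Fgg with adjusted p of 0.997 or above, and without replicate 1 of both groups they were 0.13, 0.18 and 0.02. F13b, the carrier subunit of the factor XIII that crosslinks fibrin, had 9.90, 10.28 and 10.34 in CR-CD livers and 9.48, 10.08 and 10.12 in CD-CD livers. Its CR-CD value was the higher at each replicate number, by a mean of 0.28 (95% interval -0.19 to 0.75, adjusted p = 0.919). With replicate number as a block its adjusted p was 0.43. The same order by replicate number held for further genes of the 36, listed with C8g below.

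Fgg, Fga and Fgb lie side by side on chromosome 3 with 0 protein-coding genes between them, and the signals of the 3 chains deviated together from array to array. Their promoters are therefore shown, as the 250 bases before each RefSeq start in build GRCm38.p6: chr3:83025903-83026152 on the plus strand for Fga, chr3:83049864-83050113 on the minus strand for Fgb and chr3:83007474-83007723 on the plus strand for Fgg. Capitals mark matches, on either strand, to 4 short motifs of liver and acute-phase genes: CTGGGA (the core of the interleukin 6 response element), TTCNNNGAA (STAT), GTTAAT (HNF1) and TTGCNNAA (C/EBP).
Fga: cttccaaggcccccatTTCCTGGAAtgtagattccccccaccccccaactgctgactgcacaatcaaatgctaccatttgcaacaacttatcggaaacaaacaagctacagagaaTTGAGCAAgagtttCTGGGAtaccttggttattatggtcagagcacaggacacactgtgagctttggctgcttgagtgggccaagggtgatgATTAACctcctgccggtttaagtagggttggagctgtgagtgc
Fgb: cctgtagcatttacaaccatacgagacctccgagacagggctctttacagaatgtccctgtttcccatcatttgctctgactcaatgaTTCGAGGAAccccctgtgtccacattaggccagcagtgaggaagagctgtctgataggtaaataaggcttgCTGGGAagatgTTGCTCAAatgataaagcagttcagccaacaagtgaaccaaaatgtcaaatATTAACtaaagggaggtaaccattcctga
Fgg: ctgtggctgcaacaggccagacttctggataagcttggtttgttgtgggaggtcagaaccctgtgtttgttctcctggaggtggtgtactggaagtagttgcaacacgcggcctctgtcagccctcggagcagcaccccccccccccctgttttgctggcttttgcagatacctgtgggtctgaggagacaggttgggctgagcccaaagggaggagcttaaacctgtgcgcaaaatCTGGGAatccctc
Fga and Fgb held matches to all 4 motifs, and Fgg held CTGGGA alone. The CTGGGA match began 121 bases before the start in Fga, 91 in Fgb and 13 in Fgg, and no match overlapped another. Of 32851 RefSeq promoter windows of this length, 27.0% held CTGGGA, 7.02% TTCNNNGAA, 6.43% GTTAAT and 9.56% TTGCNNAA. A window was at hand for 27 of the 36 genes, of which 10 held CTGGGA, 5 TTCNNNGAA, 9 GTTAAT and 5 TTGCNNAA. A match is a run of letters and was not tested as a binding site.

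Groups did not overlap for 4 of the 36 genes, against 11.4% of all genes, and 2 of these 4, Plg and Vtn, belong to fibrinolysis. Plg, plasminogen, the precursor of plasmin, had 12.10, 12.19 and 12.14 in CR-CD livers, against 12.32, 12.25 and 12.26 in CD-CD livers. Its values were tight in both groups (SD 0.04 each, n = 3 each), and its change was -0.14 (95% interval -0.29 to 0.01), with adjusted p = 0.812 in limma. Vtn, vitronectin, which carries the plasminogen activator inhibitor and also blocks the complement pore, had 12.45, 12.40 and 12.42 in CR-CD livers, against 12.72, 12.49 and 12.49 in CD-CD livers, a change of -0.15 (adjusted p = 0.862). For Vtn the nearest values of the groups, 12.45 and 12.49, lay closer to each other than the highest and lowest CD-CD values did. Serpinf2, the inhibitor of plasmin, changed by -0.04.

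Among the 6 inhibitors of clotting, Serpinc1 was the 1 gene whose groups did not overlap (11.4% of all genes did not). Serpinc1, antithrombin, the main plasma inhibitor of thrombin and factor Xa, had 12.24, 12.27 and 12.25 in CR-CD livers, against 11.89, 12.19 and 12.16 in CD-CD livers. The change was 0.17 (95% interval -0.05 to 0.39, adjusted p = 0.857), and 0.08 without replicate 1 of both groups. Proc, protein C, which shuts off factors V and VIII, had 11.37, 11.50 and 11.49 in CR-CD livers and 11.05, 11.48 and 11.33 in CD-CD livers, a change of 0.17. In both genes the lowest array was replicate 1 of CD-CD. Pros1, protein S, the cofactor of protein C, had 8.85, 8.81 and 8.85 in CR-CD livers and 9.01, 8.50 and 8.22 in CD-CD livers. Its CR-CD arrays lay within an SD of 0.03 and its CD-CD arrays within 0.40, and the change was 0.26 (95% interval -0.18 to 0.69, adjusted p = 0.919). Serpind1, heparin cofactor II, had 11.30, 11.76 and 11.70 in CR-CD livers and 10.78, 11.75 and 11.63 in CD-CD livers, with replicate 1 the lowest in both groups. Serping1, the C1 inhibitor that restrains both the contact proteases and the first complement proteases, had 12.27, 12.24 and 12.13 in CR-CD livers and 12.38, 12.20 and 12.07 in CD-CD livers. Its group means were equal at 12.22.

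In the lectin branch of complement, Masp1 had the lowest p of the 36 genes. Masp1, a protease that binds the mannose-binding lectins, had 9.72, 9.69 and 9.76 in CR-CD livers, against 10.05, 9.91 and 9.80 in CD-CD livers. The change was -0.20 ± 0.08 (SE), or 0.872-fold, with a 95% interval from -0.39 to -0.0033, and the adjusted p over all genes was 0.773 in limma. With replicate number as a block its adjusted p was 0.65, and without replicate 1 of both groups the change was -0.13 (adjusted p = 0.666).

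The lectins themselves went opposite ways on the same arrays. Mbl1, mannose-binding lectin A, had 10.16, 9.93 and 9.77 in CR-CD livers and 10.24, 9.61 and 9.56 in CD-CD livers. Mbl2, mannose-binding lectin C, had 9.72, 10.57 and 10.71 in CR-CD livers and 8.68, 10.70 and 10.89 in CD-CD livers. Replicate 1 was thus the highest array of its group for Mbl1 and the lowest for Mbl2, in both groups, and the Mbl2 signal of replicate 1 deviated by -0.92 in CR-CD and by -2.11 in CD-CD livers from the mean of the other arrays of its group. The promoters of both genes are shown because their signals split on the same arrays, from chr14:41151206-41151455 for Mbl1 and chr19:30232678-30232927 for Mbl2, both on the plus strand, with capitals for the same 4 motifs.
Mbl1: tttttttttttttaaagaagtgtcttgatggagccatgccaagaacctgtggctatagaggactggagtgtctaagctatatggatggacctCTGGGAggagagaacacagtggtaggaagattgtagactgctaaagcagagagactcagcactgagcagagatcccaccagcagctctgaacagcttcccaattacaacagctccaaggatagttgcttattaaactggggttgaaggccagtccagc
Mbl2: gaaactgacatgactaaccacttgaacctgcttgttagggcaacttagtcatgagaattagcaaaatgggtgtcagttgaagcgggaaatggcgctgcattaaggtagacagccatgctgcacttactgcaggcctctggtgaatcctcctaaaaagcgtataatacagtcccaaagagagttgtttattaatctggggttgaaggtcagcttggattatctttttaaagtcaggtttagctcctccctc
Mbl1 held CTGGGA, beginning 158 bases before its start, and Mbl2 held none of the 4 motifs in this window. CTGGGA was in 27.0% of all RefSeq promoter windows of this length. A part of these letters in the signals of the 2 genes was not tested.

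Around the enzymes that cleave C3, the groups overlapped for every gene measured. Cfb, factor B, the protease of the alternative pathway, had 11.56, 11.57 and 11.55 in CR-CD livers and 11.62, 11.60 and 11.40 in CD-CD livers, a change of 0.02 (95% interval -0.17 to 0.21). C4b, complement C4, had 11.27, 11.67 and 11.53 in CR-CD livers and 11.72, 11.32 and 11.21 in CD-CD livers. Replicate 1 was the lowest CR-CD array and the highest CD-CD array for C4b, so that its change was 0.07 with all arrays and 0.33 (adjusted p = 0.272) without replicate 1 of both groups. C2, the protease of the classical and lectin pathways and a direct neighbour of Cfb in the gene order, changed by 0.03.

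The terminal genes build the pore that C5 sets off. Hc, the mouse gene of C5 and the brightest of them, had 11.78, 11.90 and 11.81 in CR-CD livers and 11.83, 11.88 and 11.59 in CD-CD livers, a change of 0.06. C8g, the lipocalin-type subunit of C8, had 10.69, 11.11 and 11.14 in CR-CD livers and 10.46, 10.89 and 10.71 in CD-CD livers. That was the highest change of the 36 genes, 0.29 (1.23-fold, 95% interval -0.08 to 0.66, adjusted p = 0.851), and the CR-CD value was the higher at each replicate number (adjusted p = 0.398 with replicate number as a block). The other subunits of C8, C8a and C8b, which are neighbours in the gene order, changed by 0.13 and 0.05. C6 had 9.42, 8.77 and 8.68 in CR-CD livers and 9.08, 8.49 and 8.60 in CD-CD livers, again with the higher CR-CD value at each replicate number, a change of 0.23 (adjusted p = 0.573 with replicate number as a block). C9, which forms the ring of the pore, changed by -0.03. Of the 36 genes, F7, F10, F11, F13b, Proc, Serpinc1, Serpind1, C8a and Cfi likewise had the higher CR-CD value at each replicate number. The share of all genes with this order is not given, and the labels do not pair arrays of the same number.

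Of the soluble brakes on complement, Cfi came close to a split of the groups. Cfi, factor I, which degrades C3b and C4b, had 11.93, 12.01 and 12.05 in CR-CD livers, against 11.77, 11.94 and 11.81 in CD-CD livers. The change was 0.16 (95% interval -0.02 to 0.34, adjusted p = 0.816), and the overlap rested on CD-CD replicate 2 lying 0.01 above CR-CD replicate 1. C4bp, the cofactor of factor I for C4b, had 11.63, 11.59 and 11.55 in CR-CD livers and 11.80, 11.39 and 11.30 in CD-CD livers, a change of 0.10.

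Across the 36 genes, the replicate 1 arrays of both groups stood apart from the other arrays, mostly in the same direction. The replicate 1 signal lay on the same side of the mean of replicates 2 and 3 in both groups for 29 of the 36 genes (80.6%), above it for 13 and below it for 16. The share was 55.2% of all genes and 72.1% of the genes at least as bright as C2. Of the 36 genes, 11 were at least 0.3 off the same way in both groups, against 4.70% of all genes and 16.7% of the bright ones. In 7 of these, Mbl2, Serpind1, F11, F13b, C2, F5 and C8g, replicate 1 was low, and in 4, C6, C8a, C8b and Mbl1, it was high. Besides Mbl2, the deviation of replicate 1 was -0.43 for Serpind1 in CR-CD and -0.90 in CD-CD livers. That of C6 was 0.70 in CR-CD and 0.54 in CD-CD livers.

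**Figure D3:**
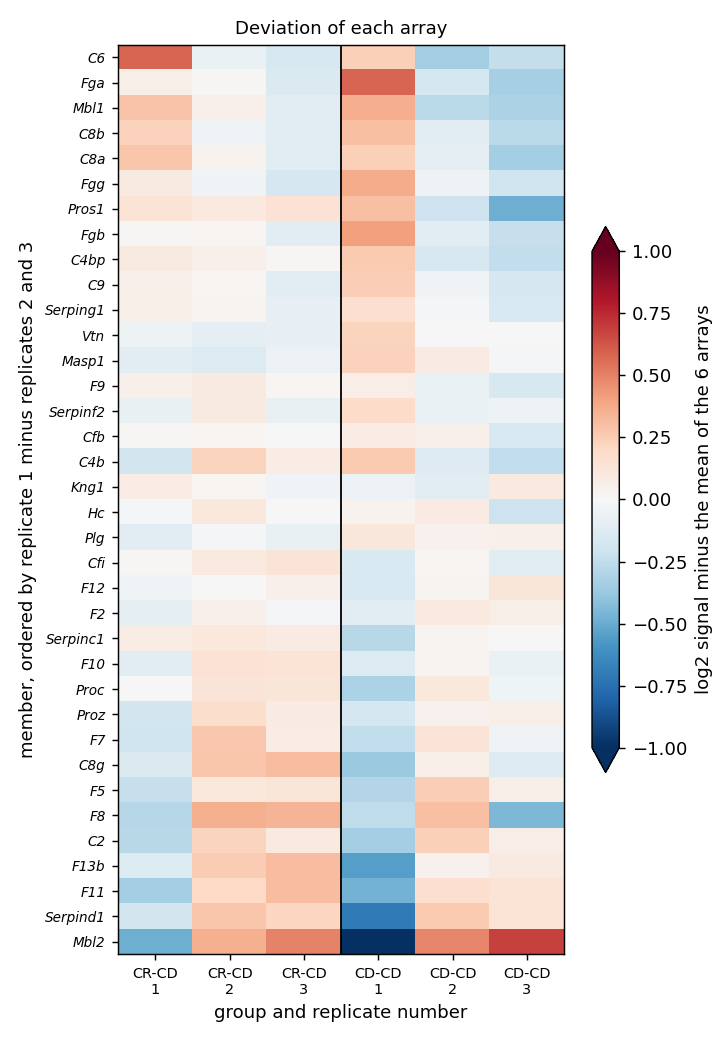
Log2 signal of each of the 36 genes (rows) on each of the 6 arrays (columns, CR-CD at left and CD-CD at right) minus the gene's mean over the 6 arrays, red above and blue below it, with rows ordered by the deviation of replicate 1. Both replicate 1 columns run red at the top and blue at the bottom, most strongly for Mbl2 in CD-CD, whose colour is at the end of the scale.

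The deviation was the larger in CD-CD replicate 1 for 29 of the 36 genes, against 51.5% of all genes. The SD between arrays was larger in CD-CD than in CR-CD livers for 30 of the 36 genes, against 54.5% of all genes and 65.9% of the bright ones, with medians of 0.10 in CR-CD and 0.22 in CD-CD livers. Without replicate 1 of both groups it was larger in CD-CD livers for 24 of the 36. The share of all genes is not given for that setting, so this count cannot be set against a background. By replicate number, the CR-CD array was above the CD-CD array for 17 of the 36 genes at replicate 1, for 27 at replicate 2 and for 28 at replicate 3, where 49.8%, 51.7% and 50.4% of all genes were. Without replicate 1 of both groups, the change was above 0 for 28 of the 36 genes (51.5% of all genes), with a median of 0.10 (0.00 over all genes), and 9 genes changed sign. An unadjusted p under 0.05 was then reached by 6 genes, Pros1 (0.47), C4b (0.33), C8g (0.33), Mbl1 (0.26), C4bp (0.23) and F13b (0.21), all higher in CR-CD livers, where 11.5% of all genes reached it, and the lowest adjusted p was 0.19.

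Genes of the acute-phase response, picked after their values were seen, were high on the same arrays. Saa2, serum amyloid A, had 12.52, 9.83 and 9.98 in CR-CD livers and 13.17, 9.40 and 8.10 in CD-CD livers. Orm2, an orosomucoid, had 10.89, 8.49 and 8.67 in CR-CD livers and 12.50, 8.71 and 7.99 in CD-CD livers. Fgl1, a fibrinogen-like hepatocyte protein, had 12.34, 11.19 and 10.86 in CR-CD livers and 12.67, 10.62 and 10.55 in CD-CD livers. In these 3 genes, and likewise in Lcn2, Apcs and Hp, replicate 1 was the highest array of each group, and it was higher in CD-CD than in CR-CD livers. Stat3, the factor that carries the interleukin 6 signal, had 9.67, 9.87 and 9.69 in CR-CD livers and 10.58, 9.60 and 9.64 in CD-CD livers, so that it stood out in CD-CD replicate 1 alone. Socs3, its feedback inhibitor, had 6.63, 6.53 and 6.33 in CR-CD livers and 7.37, 6.65 and 6.48 in CD-CD livers. Cebpa, a factor of the resting hepatocyte, had 9.28, 9.84 and 9.83 in CR-CD livers and 9.19, 9.84 and 10.06 in CD-CD livers, lowest in replicate 1 of each. Stat3 and Cebpa were likewise picked after their values were seen, from 9 hepatocyte factors measured. Over the 9, replicate 1 lay below the mean of replicates 2 and 3 in both groups for 5 and above it for 2. The part of these genes in the values of the clotting and complement genes was not tested.

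**Figure D4:**
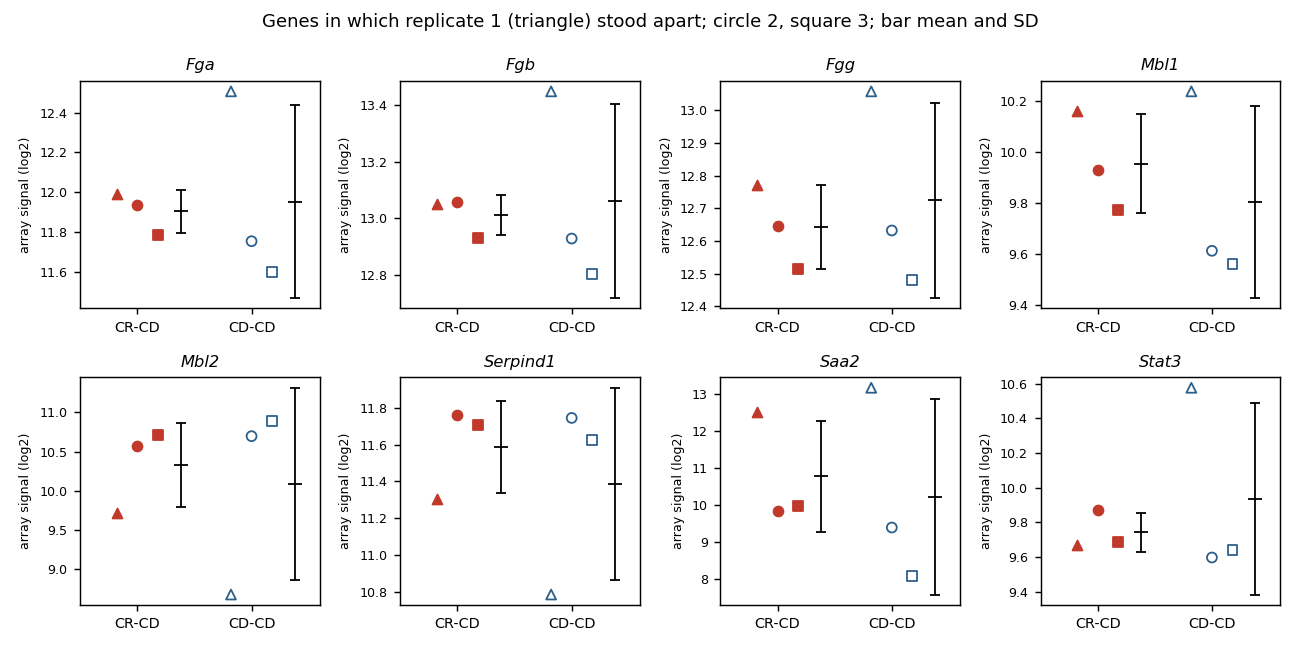
Log2 array signal (y axis, a scale of its own in each panel) of Fga, Fgb, Fgg, Mbl1, Mbl2, Serpind1, Saa2 and Stat3 on the CR-CD arrays (left, filled) and CD-CD arrays (right, open), triangles for replicate 1, circles for 2 and squares for 3, with bars for the group mean and SD. The CD-CD triangle is the highest of the 6 arrays in the fibrinogen, Mbl1, Saa2 and Stat3 panels and the lowest in the Mbl2 and Serpind1 panels, at 8.68 and 10.78.

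Genes of both pathways outside the 40, such as receptors, tissue inhibitors and membrane regulators, gave 0 of 54 measured past the adjusted p (of 61 listed, 1.48% of all genes), with 6 at an unadjusted p under 0.05 (6.38% of all genes). Of 25 coagulation genes among them, F2r, the thrombin receptor PAR1, had the lowest p. F2r had 8.69, 8.95 and 8.97 in CR-CD livers, against 8.52, 8.62 and 8.57 in CD-CD livers, without overlap, a change of 0.30 (95% interval 0.08 to 0.52, adjusted p = 0.569). Vkorc1, the enzyme that recycles vitamin K for the carboxylation of factors II, VII, IX and X, had 9.96, 10.15 and 10.14 in CR-CD livers and 10.08, 10.52 and 10.52 in CD-CD livers, a change of -0.29 (adjusted p = 0.812). Ggcx, the carboxylase it serves, gave 0.15, with adjusted p = 0.947. Tfpi, the tissue factor pathway inhibitor, gave 0.14 without overlap of the groups, Plat, the tissue plasminogen activator, -0.29, and Procr, the endothelial protein C receptor, -0.12.

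Of 29 other complement genes, 5 had an unadjusted p under 0.05 in limma (6.38% of all genes) and 0 with the methods' t-test (5.78% of all genes). Groups did not overlap for 4 of the 29 (11.4% of all genes), each of them higher in CR-CD livers (5.63% of all genes). Vsig4, a complement receptor of liver macrophages, had 8.56, 9.22 and 8.64 in CR-CD livers, against 8.29, 8.25 and 7.43 in CD-CD livers, a change of 0.82 (1.76-fold, adjusted p = 0.637). Cfp, properdin, which stabilises the alternative pathway enzyme, had 7.43, 8.35 and 8.01 in CR-CD livers and 7.17, 7.58 and 7.05 in CD-CD livers, a change of 0.66 (adjusted p = 0.721). C1qa, a chain of the C1q that opens the classical pathway, had 8.06, 8.45 and 8.26 in CR-CD livers, against 8.03, 7.97 and 7.49 in CD-CD livers, a change of 0.43 (adjusted p = 0.749). The other chains, C1qb and C1qc, named after their values were seen, gave 0.58 each with adjusted p of 0.758 and 0.778. None of these changes passed the test over all genes. At the other end of the list stood Cfhr2 (-0.11), a relative of factor H, and Cd55 (-0.10) and Cd46 (-0.09), membrane regulators of complement.

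C1q, properdin and Vsig4 are known as products of macrophages rather than of hepatocytes, and markers of the Kupffer cell, the macrophage of the liver, moved with them. All 7 Kupffer markers listed had a change above 0, from 0.50 to 0.97 with a median of 0.62. In limma 4 of them had an unadjusted p under 0.05 (6.38% of all genes) and 0 passed the adjusted p (1.48%). With the methods' t-test 1 of the 7 had a p under 0.05 (5.78% of all genes). Their summed signal was 11.16, 11.78 and 11.10 in CR-CD livers, against 10.93, 10.83 and 10.37 in CD-CD livers on the log2 scale. Clec4f, a lectin of the Kupffer cell, had 9.07, 9.60 and 9.29 in CR-CD livers, against 8.88, 8.83 and 8.59 in CD-CD livers, a change of 0.55 (adjusted p = 0.357). The 8 hepatocyte markers had a median change of 0.01 and a summed signal of 15.70, 15.81 and 15.78 in CR-CD livers and 15.69, 15.80 and 15.75 in CD-CD livers. The median change was 0.05 for 7 markers of endothelium, 0.03 for 7 of stellate cells, 0.06 for 4 of bile duct, 0.03 for 5 of lymphocytes, 0.01 for 6 of neutrophils and 0.03 for 5 of platelets. In whole liver, more cells of a type and more RNA per cell cannot be told apart, and the part of the macrophages in the values of these complement genes was not tested.

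**Figure D5:**
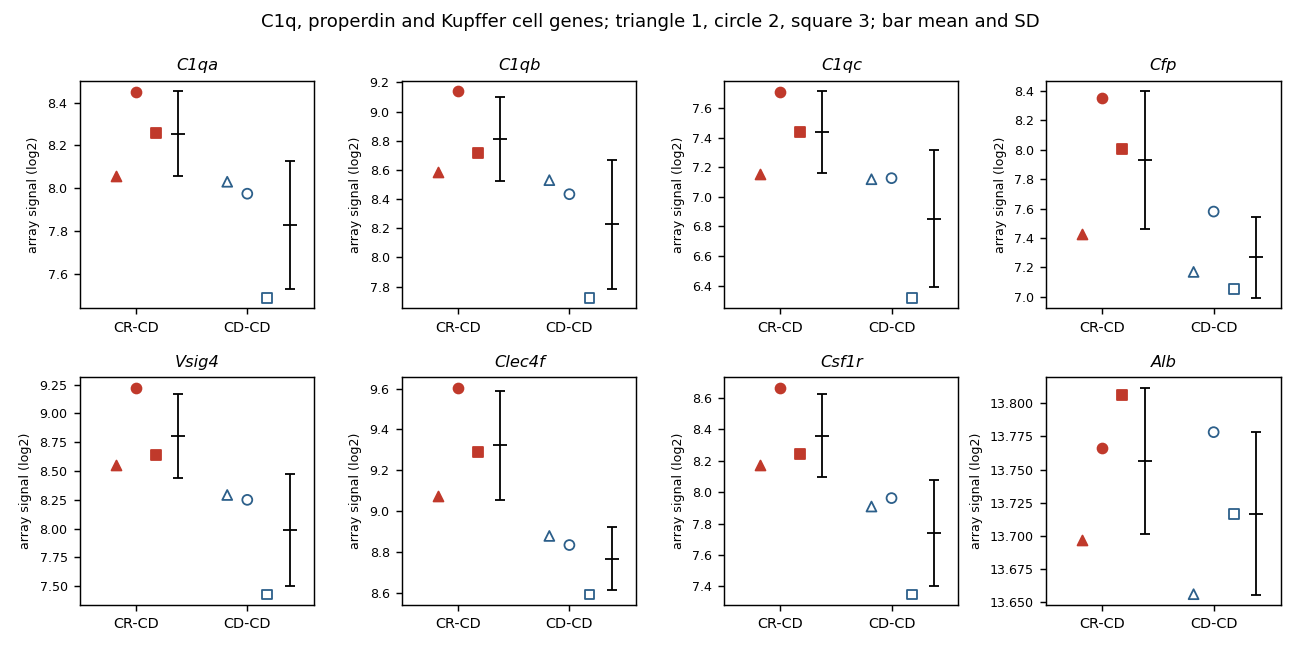
Log2 array signal (y axis, a scale of its own in each panel) of C1qa, C1qb, C1qc, Cfp, Vsig4, the Kupffer cell markers Clec4f and Csf1r, and the hepatocyte marker Alb on the CR-CD arrays (left, filled) and CD-CD arrays (right, open), triangles for replicate 1, circles for 2 and squares for 3, with bars for the group mean and SD. In the first 7 panels CR-CD replicate 2 is the highest array, at 9.22 for Vsig4, and CD-CD replicate 3 the lowest, at 7.43, while the Alb values of both groups mix.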

How the data were processed

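Liver RNA of offspring was hybridised to 6 GeneChip Mouse Gene 2.0 ST arrays, 3 of CR-CD and 3 of CD-CD offspring. The authors normalised the arrays with GeneSpring and deposited log2 signals. The summarization of probes and the genome build are not given in the sources used here. The table held 33793 probe sets with 0 missing values, array medians were between 5.48 and 5.54, and 0 columns were left out. Symbols came from the platform annotation. A gene was represented by the brightest of its probe sets with exactly 1 symbol, which gave 22180 genes.

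CR-CD was tested against CD-CD by limma (version 3.58.1 under R 4.3.3, eBayes moderation with no trend), with Benjamini-Hochberg adjustment over all genes and a threshold of 0.05, after a test on simulated data. Where nothing says that arrays come from separate animals, p-values measure only the spread between these arrays, and their number limits the precision. A difference of 3 against 3 values cannot go below an exact two-sided permutation p of 0.1, so no such test is given. After subtracting group means, the correlation across genes of same-numbered arrays was 0.407, 0.208 and 0.202, each above the limit of 0.1, and the fit with replicate number as a block is given where it matters. The labels number the arrays but do not say that arrays of the same number belong together.

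Per-array values are printed for the 10 genes of the 36 with the lowest p, those whose groups did not overlap and the brightest of each role, and for further genes chosen after their values were seen. Of the other pathway genes, those with the 3 lowest p in each direction are named. The genes and lists were chosen with earlier results of these data known. Promoters are RefSeq sequences of build GRCm38.p6 matched by symbol, and the gene order is that of RefSeq. Each result was recomputed with the methods' t-test, limma with trend and robust variances, quantile-normalised or median-centred values, genes above the 40th percentile of signal only, probe sets averaged per gene or tested singly, no probe sets having longer-format values, the replicate block, each array left out in turn and, added after seeing the data, both replicate 1 arrays left out.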

Additional observations from a re-analysis of the deposited data

How the results depend on the processing

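None of the 36 genes passed the adjusted p of 0.05 in limma (1 at an unadjusted p under 0.05) or in any of the 16 alternatives, where the lowest adjusted p was 0.139 for Pros1 without CD-CD replicate 1. The 54 other pathway genes gave 0 as well under every alternative. At an unadjusted p under 0.05 they numbered 6 in limma and 1 with the methods' t-test. That count ran from 0 without CR-CD replicate 2 to 16 without both replicate 1 arrays. With replicate number as a block, 339 of all genes passed, against 329, with 0 of the 36 in both, 3 of the 36 at an unadjusted p under 0.05 and 8.03% of all genes. The methods' t-test gave 275 of all genes after adjustment and 1 of the 36 (Plg) at p under 0.05. Dropping probe sets that hold longer-format values brought the count of all genes to 0. Leaving out 1 array gave 290 to 355 genes and leaving out both replicate 1 arrays 384. The median percentile of signal was 99.049 with the mean of all probe sets, against 98.938, and 98.929 to 98.959 with 1 array left out. With 1 array left out, the median change ran from -0.0025 (without CR-CD replicate 2) to 0.107 (without CR-CD replicate 1) for coagulation and from -0.0033 (without CD-CD replicate 3) to 0.152 (without CD-CD replicate 1) for complement.

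For the 36 genes the size of the change could differ only with quantile normalization, median centring or arrays left out. The other alternatives leave it as it is, so that they could not turn a sign. The sign held in every alternative for 14 of the 36 genes, Plg, Vtn, Masp1, Serpinc1, Cfi, C8g, F13b and Pros1 among them. It turned in at least 1 for 22 genes, of which the largest change in size with all arrays was 0.243 (Mbl2). Quantile normalization gave F12 -0.0082. Without both replicate 1 arrays the changes were 0.13 for Fgb, 0.022 for Fgg, 0.054 for Serping1, 0.18 for Fga, 0.066 for Serpinf2, -0.046 for F12, 0.056 for C9, -0.0063 for Kng1, -0.15 for Mbl2 and 0.014 for Cd55, and C4b, whose sign turned with 1 array left out, was at 0.33. With 1 array left out, the lowest and highest changes were -0.18 and 0.15 for Fgb, -0.20 and 0.086 for Fgg, -0.076 and 0.083 for Serping1, -0.23 and 0.23 for Fga, -0.096 and 0.0042 for F2, -0.027 and 0.12 for Hc, -0.16 and 0.11 for F5, -0.098 and 0.038 for Serpinf2, -0.051 and 0.061 for Cfb, -0.0033 and 0.25 for C4bp, -0.097 and 0.38 for Serpind1, -0.030 and 0.22 for C4b, -0.0033 and 0.28 for C8a, -0.069 and 0.067 for F12, -0.068 and 0.22 for C8b, -0.12 and 0.089 for C9, -0.027 and 0.15 for Proz, -0.0018 and 0.10 for Kng1, -0.46 and 0.64 for Mbl2, -0.013 and 0.22 for F7, -0.098 and 0.31 for F11, -0.13 and 0.18 for C2, -0.17 and 0.016 for Cd55 and -0.22 and 0.018 for Cfhr2. The cause of these turns was not tested.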
